A study of Mus musculus with 7 samples.

Results

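The 33 genes described here code for the ligands, receptors, Fringe enzymes, proteases, nuclear cofactors, Hes and Hey targets and modulators of the Notch pathway. They were taken by gene name from a list, and all 33 were found among the 49315 genes of the count table. They were measured by bulk RNA sequencing of oligodendroglia from mouse brain, in 4 libraries of the genotype Sox9-tg, whose cells overexpress the transcription factor Sox9, and 3 libraries of the genotype Sox9-wt (control). By its title the series concerns Sox9 targets in early postnatal NG2 glia, the progenitors of oligodendrocytes. The labels name no promoter or Cre line for the transgene, no age in days and no sorting step. They call the libraries biological replicates and leave unsaid whether these came from separate animals. The p-values therefore weigh differences against the scatter among these 7 libraries, which may be technical in part.

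Notch receptors are cut when a Delta-like or Jagged ligand on a neighbouring cell pulls on them. ADAM10 makes the first cut and gamma-secretase, whose subunits include presenilins and nicastrin, frees the intracellular domain. That domain joins RBPJ and a Mastermind-like protein in the nucleus and turns on Hes and Hey genes, which repress proneural genes. Fringe enzymes add a sugar to the receptors and so change which ligands they answer to. In the developing brain Notch signalling keeps progenitors undifferentiated, and in oligodendrocyte progenitors it is known for holding back maturation.

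The libraries held between 15768472 and 20815459 gene counts in the Sox9-tg group and between 17275678 and 30507326 in the control group, and the 33 genes took up 0.231% to 0.282% of the counts in Sox9-tg and 0.238% to 0.274% in control libraries. Sox9 itself stood at 2915 ± 588 CPM (counts scaled to a common library size) in Sox9-tg and 295 ± 57.0 CPM in control libraries (SD, n = 4 and 3), so every library matched its label. All 8 listed NG2 glia markers, among them Pdgfra, Cspg4 and Olig2, were present in every library, with a summed level of 6864 to 10906.1 CPM in Sox9-tg and 2013 to 2539.65 CPM in control libraries. Control library 2 stood apart in markers of other cells: its 8 endothelial markers summed to 148 CPM and its 6 microglial markers to 502 CPM, against 7.83 and 10.7 CPM and 67.4 and 136 CPM in the other control libraries. Sox9-tg library 2 was the highest of its group in the same lists, at 34.8 and 207 CPM, and Sox9-tg library 1 had the lowest sums of NG2 glia and oligodendrocyte markers in its group. Sox9-tg libraries 3 and 4 resembled each other more than any other pair within a group, with a chi-square of 5.29 per degree of freedom between their counts, against 45 to 93.6 for the other pairs.

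Of the 33 Notch genes, all of which passed the filter on low counts, 2 were higher and 5 were lower in Sox9-tg than in control libraries, and 26 did not pass the test. Those that rose were the receptor gene Notch2 and the coactivator gene Maml2, and those that fell were the ligand gene Dll4, the receptor gene Notch4, the Fringe genes Lfng and Mfng, and Hes6. The test was the quasi-likelihood test of edgeR, with p-values adjusted by the Benjamini-Hochberg method over all 16616 genes tested and a threshold of 0.05. In the same test 13.5% of all genes were called, 7.69% higher and 5.86% lower, beside 21.2% of the Notch genes. The members and the other gene lists were chosen with earlier results of these data known. Their shares are therefore a description and no independent comparison with all genes. The CPM values of the groups did not overlap for 10 of the 33 genes, or 30.3%, against 24.5% of all genes tested. The median log2 fold change of the 33 genes (Sox9-tg minus control, as for every fold change here) was -0.0057, beside -0.012 for all genes, and the median size of the change without regard to sign was 0.26 beside 0.28. All 7 calls held in each of 16 other settings of the analysis, including the removal of any 1 library.

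**Figure D1:**
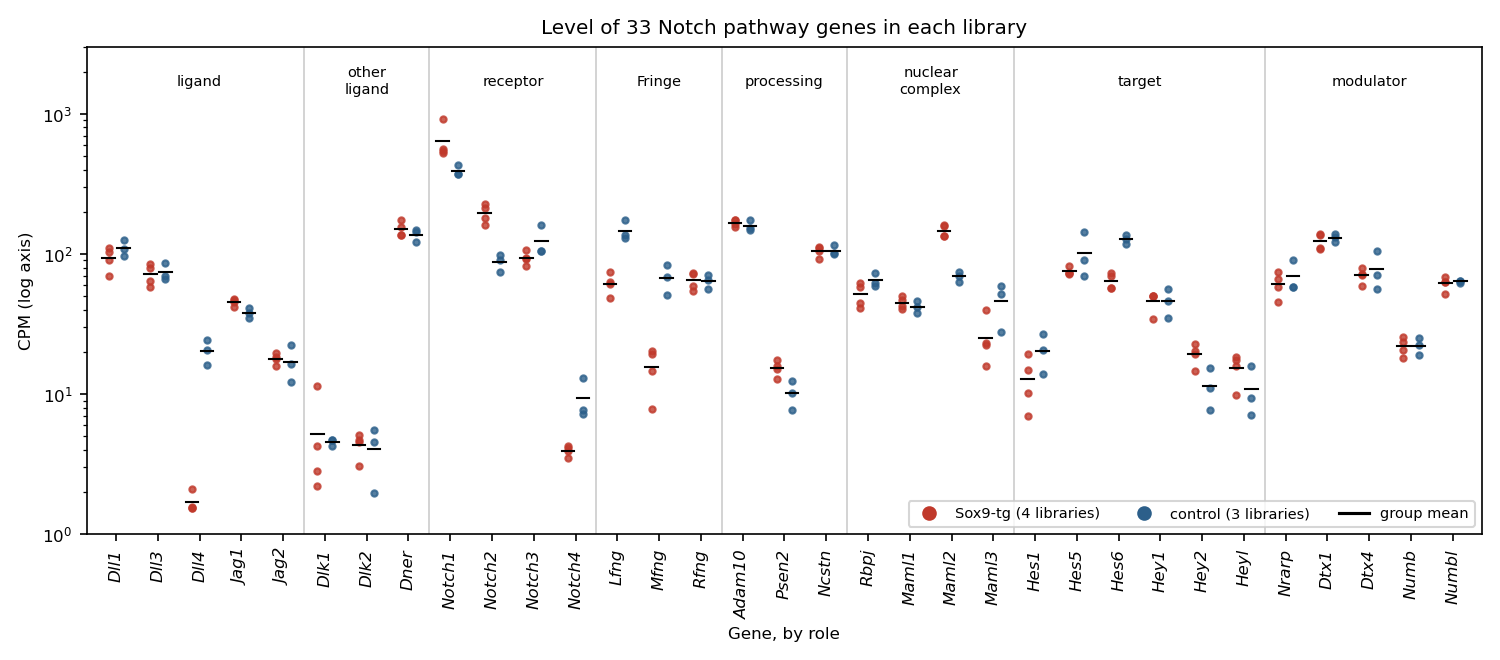
Level in CPM (log axis) of each of the 33 genes, ordered by role, with 1 point per library, Sox9-tg libraries in red to the left and control libraries in blue to the right, and a black bar at each group's mean. The points of the groups lie apart for Dll4, Notch2, Notch4, Lfng, Mfng, Maml2 and Hes6, the 7 genes past the threshold, and also for Jag1, Notch1 and Psen2, which did not pass.

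Promoter sequences were at hand for 28 of the 33 genes, as RefSeq windows of 300 bases (GRCm38.p6) that hold the 250 bases before the start of a gene and its first 50 bases. None was at hand for Mfng, Hes1, Hey1, Heyl and Dtx4. The windows were searched on both strands for TGGGAA, the core that RBPJ binds (TTCCCA on the other strand), and for ACAATG and ACAAAG, forms of the core that SOX proteins bind (CATTGT and CTTTGT on the other strand). The windows below are shown because they belong to the ligand gene with the largest fall, a Fringe gene that fell, a pair of Notch targets that did not pass, and the receptor and coactivator genes that rose. Capitals mark the searched cores.
Dll4, chr2:119325534-119325833, plus strand: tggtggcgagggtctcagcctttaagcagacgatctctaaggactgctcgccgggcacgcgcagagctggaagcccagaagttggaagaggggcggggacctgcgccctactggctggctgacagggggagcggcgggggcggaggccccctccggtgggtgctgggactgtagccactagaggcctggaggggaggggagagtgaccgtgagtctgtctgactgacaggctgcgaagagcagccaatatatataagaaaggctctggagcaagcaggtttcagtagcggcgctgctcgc
Lfng, chr5:140607091-140607390, plus strand: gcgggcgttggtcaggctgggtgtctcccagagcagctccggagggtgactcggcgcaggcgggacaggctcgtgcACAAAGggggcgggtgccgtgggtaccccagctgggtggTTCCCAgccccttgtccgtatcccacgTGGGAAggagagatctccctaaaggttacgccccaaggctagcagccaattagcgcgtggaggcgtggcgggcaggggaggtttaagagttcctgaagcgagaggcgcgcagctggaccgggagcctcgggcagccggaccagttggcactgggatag
Hes5, chr4:154960673-154960972, plus strand: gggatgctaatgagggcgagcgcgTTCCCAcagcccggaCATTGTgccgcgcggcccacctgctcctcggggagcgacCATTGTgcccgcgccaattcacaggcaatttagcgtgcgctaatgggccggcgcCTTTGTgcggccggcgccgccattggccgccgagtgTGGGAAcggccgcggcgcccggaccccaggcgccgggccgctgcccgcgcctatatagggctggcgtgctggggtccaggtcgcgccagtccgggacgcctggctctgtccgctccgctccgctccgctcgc
Hey2, chr10:30842734-30843033, minus strand: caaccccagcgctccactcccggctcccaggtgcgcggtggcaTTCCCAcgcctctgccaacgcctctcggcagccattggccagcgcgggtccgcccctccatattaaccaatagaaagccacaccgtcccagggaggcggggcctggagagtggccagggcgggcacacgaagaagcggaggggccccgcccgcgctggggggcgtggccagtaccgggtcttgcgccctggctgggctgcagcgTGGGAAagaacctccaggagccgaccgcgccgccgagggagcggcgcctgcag
Notch2, chr3:98013288-98013587, plus strand: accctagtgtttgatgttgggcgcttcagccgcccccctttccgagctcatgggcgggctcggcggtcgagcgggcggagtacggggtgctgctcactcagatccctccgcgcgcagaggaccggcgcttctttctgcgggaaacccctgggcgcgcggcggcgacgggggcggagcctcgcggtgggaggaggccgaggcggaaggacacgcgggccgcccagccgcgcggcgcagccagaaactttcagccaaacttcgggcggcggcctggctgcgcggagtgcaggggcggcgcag
Maml2, chr9:13297708-13298007, plus strand: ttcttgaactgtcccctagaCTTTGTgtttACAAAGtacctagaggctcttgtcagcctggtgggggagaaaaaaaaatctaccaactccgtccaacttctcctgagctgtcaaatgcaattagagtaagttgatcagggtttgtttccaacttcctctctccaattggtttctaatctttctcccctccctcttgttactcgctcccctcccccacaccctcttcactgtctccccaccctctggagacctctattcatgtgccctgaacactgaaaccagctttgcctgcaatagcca
The 28 genes have 36 windows, since some have several starts. TGGGAA occurred at least 2 times in 4 of the 36 windows (11.1%), those of Hes5, Hey2, Lfng and Rbpj, and in 3.79% of the 32817 windows of all genes. At least 1 TGGGAA was present in 8 of the 36 windows (22.2%), and in 25.6% of all windows. The windows of Rbpj overlap and share a core, and by gene the count was 7 of 28. In Lfng one of the cores shares bases with CACGTG, an E-box of the kind that Hes and Hey proteins can bind, which occurred in 7.15% of all windows. ACAATG was present in 6 of the 36 windows (16.7%) and in 12.6% of all windows, and ACAAAG in 9 of the 36 (25%) and 18.7% of all windows. The Hes5 window held 3 SOX cores, the Maml2 window shown held 2, and those of Dll4 and Notch2 held no core of either kind. The windows of the Notch genes were rich in G and C, with a median of 63% against 52.7% for all windows. These matches are letters in a window and were not measured as bound sites.

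The ligand Dll4 showed the largest fall of the 33 genes, while the other ligand genes did not pass the test. Dll4, which codes for a Delta-like ligand best known from sprouting blood vessels and also made by neural progenitors, had 1.58, 1.55, 1.55 and 2.10 CPM in the 4 Sox9-tg libraries, against 16.2, 24.2 and 20.8 CPM in the 3 control libraries. Every Sox9-tg library was far below every control library, and the counts behind these levels were 24 to 43 in Sox9-tg and 278 to 745 in control libraries. The level was 12-fold lower in Sox9-tg (log2 fold change -3.58, SE 0.21, adjusted p = 0.000118 by edgeR's quasi-likelihood test), and only 0.0181% of the genes tested had a log2 fold change that low or lower. Dll4 (ENSMUSG00000027314) lies on GRCm38 chromosome 2 from 119325784 to 119335962 on the plus strand. Exons of Gm14207 on the opposite strand overlap 214 of its exon bases, and since the use of strand in counting is not given in the sources used here, reads of the 2 genes cannot be told apart there.

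Among the 5 Delta-like and Jagged genes, Dll1 and Dll3 were the most abundant transcripts per length in both groups. Dll1, a ligand that activates Notch in neighbouring cells, had 69.7, 90.8, 103 and 109.9 CPM in Sox9-tg and 96.4, 108 and 125 CPM in control libraries. These ranges overlapped, and the log2 fold change of -0.24 had a 95% interval of -0.62 to 0.14 (adjusted p = 0.41 by edgeR's test). Dll3, a ligand that acts inside its own cell and dampens Notch activity, averaged 71.7 ± 12.6 CPM in Sox9-tg and 74.1 ± 10.5 CPM in control libraries, with an interval of -0.41 to 0.32 for the log2 fold change. Jag1, a Jagged ligand, had 42.1 to 47.4 CPM in Sox9-tg and 35.0 to 41.1 CPM in control libraries. Its groups did not overlap, yet the log2 fold change of 0.26 (SE 0.11) did not pass (adjusted p = 0.157 by edgeR's test). Jag2 averaged 17.9 ± 1.55 CPM in Sox9-tg and 17.0 ± 5.18 CPM in control libraries.

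Set side by side per length of annotated exon, as RPKM (the CPM divided by exon length in kilobases), Dll1 and Dll3 made up 37.9% ± 2.34 and 43.2% ± 1.92 of the summed level of the 5 ligand genes in Sox9-tg libraries, against 39.2% ± 1.22 and 39.1% ± 2.88 in control libraries. Dll3 took a larger share than Dll1 in all 4 Sox9-tg libraries, and in 2 of the 3 control libraries, while the RPKM ranges of the genes over libraries overlapped in both groups. Dll4 accounted for 0.760% ± 0.101 of that sum in Sox9-tg and 7.98% ± 1.47 in control libraries, and Jag1 for 13.7% ± 2.27 and 9.96% ± 1.77. In RPKM the order below Dll1 and Dll3 was Jag1 (7.80 ± 0.422), Jag2 (2.56 ± 0.222) and Dll4 (0.439 ± 0.0705) in Sox9-tg libraries. In control libraries it was Jag1 (6.53 ± 0.526), Dll4 (5.29 ± 1.05) and Jag2 (2.44 ± 0.744), where the ranges of Jag1 and Dll4 overlapped. The summed RPKM of the 5 ligand genes was 58.1 ± 8.17 in Sox9-tg and 66.3 ± 6.71 in control libraries, with overlapping ranges.

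The 3 genes of atypical ligands did not pass. Dner, which codes for a transmembrane protein with Notch-binding properties in neurons and glia, had 137 to 174 CPM in Sox9-tg and 121 to 148 CPM in control libraries, and its mean per length (31.6 and 28.7 RPKM) was above those of Dll1 and Dll3. Dlk1 and Dlk2, which lack the domain that the Delta and Jagged ligands use to bind and can oppose Notch, were scarce. Dlk1 had 2.21, 11.4, 2.83 and 4.29 CPM in Sox9-tg and 4.24 to 4.72 CPM in control libraries, so that Sox9-tg library 2 alone stood above the control range. Its interval of -0.99 to 1.37 for the log2 fold change is wide enough to hold a change past 2-fold. Dlk2 averaged 4.37 ± 0.884 CPM in Sox9-tg and 4.05 ± 1.87 CPM in control libraries.

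Among the receptor genes, Notch2 rose and Notch4 fell. Notch2, the receptor gene that codes for a broadly expressed paralogue of Notch1, had 227, 212, 161 and 182 CPM in Sox9-tg libraries, against 90.8, 98.5 and 74.9 CPM in control libraries. The groups did not overlap, and the level was 2.22-fold higher in Sox9-tg (log2 fold change 1.15, SE 0.16, adjusted p = 0.00237 by edgeR's test). Notch2 (ENSMUSG00000027878) lies on chromosome 3 from 98013527 to 98150361 on the plus strand, and Gm42820 shares 541 of its exon bases on the same strand. Notch4, known above all from endothelial cells, had 4.25, 3.94, 3.48 and 4.15 CPM in Sox9-tg libraries and 7.73, 13.1 and 7.24 CPM in control libraries. All Sox9-tg values were below all control values, and control library 2 was the highest (log2 fold change -1.24, SE 0.25, adjusted p = 0.0132).

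Notch1 and Notch3 did not pass. Notch1, the most abundant receptor transcript in every library, had 914, 529, 539 and 562 CPM in Sox9-tg and 433, 374 and 375 CPM in control libraries. The groups did not overlap, but Sox9-tg library 1 lay far above the rest of its group, and the log2 fold change of 0.69 (SE 0.21) missed the threshold (adjusted p = 0.0686). Without Sox9-tg library 1 the log2 fold change of Notch1 was 0.46 and passed (adjusted p = 0.0307 by edgeR's test). That setting called 19.4% of all genes, against 13.5% with all libraries. Notch3, which in vessels belongs to mural cells and in the brain is also made by progenitors, had 93.1, 92.5, 81.8 and 107 CPM in Sox9-tg and 106, 162 and 106 CPM in control libraries. Control library 2 was again the highest, the groups overlapped, and the log2 fold change was -0.41 with all libraries and -0.17 without that library. The 6 listed mural markers summed to 13.7, 34.7, 19.7 and 22.1 CPM in Sox9-tg and 24.8, 85.1 and 22.1 CPM in control libraries. Control library 2 was the highest there too. Of these markers 4 were tested and none was called, beside 13.5% of all genes. The part of mural cells in the level of Notch3 was not tested.

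Per length, the order of the receptor transcripts differed between the groups. It was Notch1 (44.7 ± 13.0 RPKM), Notch2 (18.1 ± 2.75), Notch3 (11.6 ± 1.26) and Notch4 (0.491 ± 0.0426) in Sox9-tg libraries. In control libraries it was Notch1 (27.7 ± 2.36 RPKM), Notch3 (15.4 ± 3.99), Notch2 (8.17 ± 1.12) and Notch4 (1.16 ± 0.401). No neighbours in either order had overlapping ranges. Notch2 made up 24.5% ± 2.94 of the summed receptor level in Sox9-tg and 15.6% ± 0.745 in control libraries, and Notch3 made up 15.8% ± 2.92 and 29.1% ± 5.33. The share of Notch1 was 59.0% ± 5.18 in Sox9-tg and 53.1% ± 6.16 in control libraries, with overlapping ranges. These shares are a description of the libraries and were not tested.

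**Figure D2:**
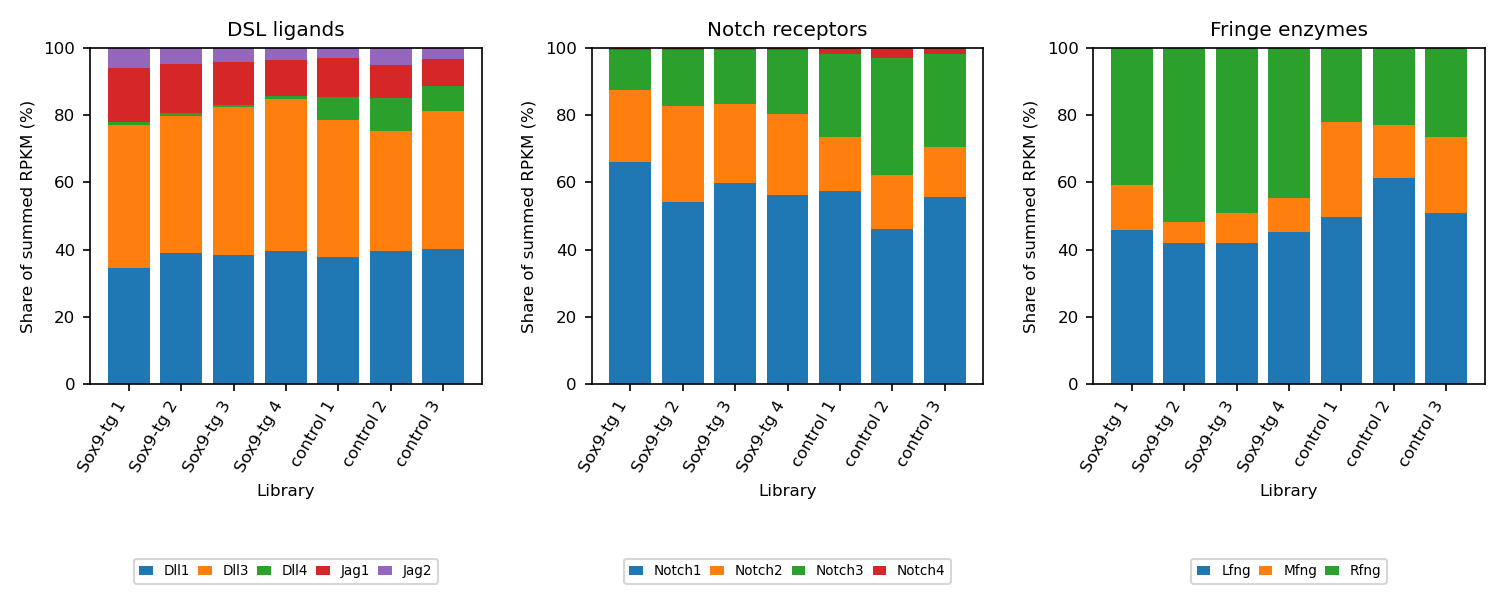
Share of the summed RPKM (%) that each gene takes among the 5 Delta-like and Jagged ligand genes, the 4 receptor genes and the 3 Fringe genes, with 1 bar per library, the 4 Sox9-tg libraries left of the 3 control libraries. Dll4 shrinks to 0.632% to 0.853% of the ligand sum in Sox9-tg libraries, against 6.95% to 9.66% in control libraries, and Rfng widens to 40.8% to 51.9% of the Fringe sum, against 21.9% to 26.6%.

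Since Dll4 and Notch4 are known from blood vessels, their levels stand here beside the 8 endothelial markers Pecam1, Cdh5, Cldn5, Kdr, Tek, Flt1, Emcn and Esam. Of the 8, 6 passed the filter on low counts and none of these was called by edgeR's test, beside 13.5% of all genes, while Pecam1 and Cdh5 had an unadjusted p under 0.05 (0.0295 and 0.0289). Their summed level was 12.7, 34.8, 11.9 and 14.6 CPM in Sox9-tg and 10.7, 148 and 7.83 CPM in control libraries, so the groups overlapped and control library 2 alone was high. None of the 8 was at 0 in every library, and Emcn was at 0 in Sox9-tg libraries 2, 3 and 4. The place of control libraries 1 and 3 below all Sox9-tg libraries in this sum rests on Kdr, which had 6.62 to 12.3 CPM in Sox9-tg libraries and 1.86 and 1.13 CPM in those controls. Without Kdr, a choice made after seeing the data, the sum was 6.09, 22.4, 5.02 and 6.002 CPM in Sox9-tg and 8.83, 118 and 6.69 CPM in control libraries, so that control libraries 1 and 3 lay above Sox9-tg libraries 1, 3 and 4. All 6 markers tested had log2 fold changes below 0, with a median of -2.07. The part of endothelial cells in the falls of Dll4 and Notch4 was not tested. Without control library 2 the log2 fold change of Dll4 was -3.44 (adjusted p = 0.000386 by edgeR's test) and that of Notch4 was -0.91 (adjusted p = 0.0268). In bulk samples fewer cells of a type and less RNA per cell cannot be told apart, which holds for every gene here.

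**Figure D3:**
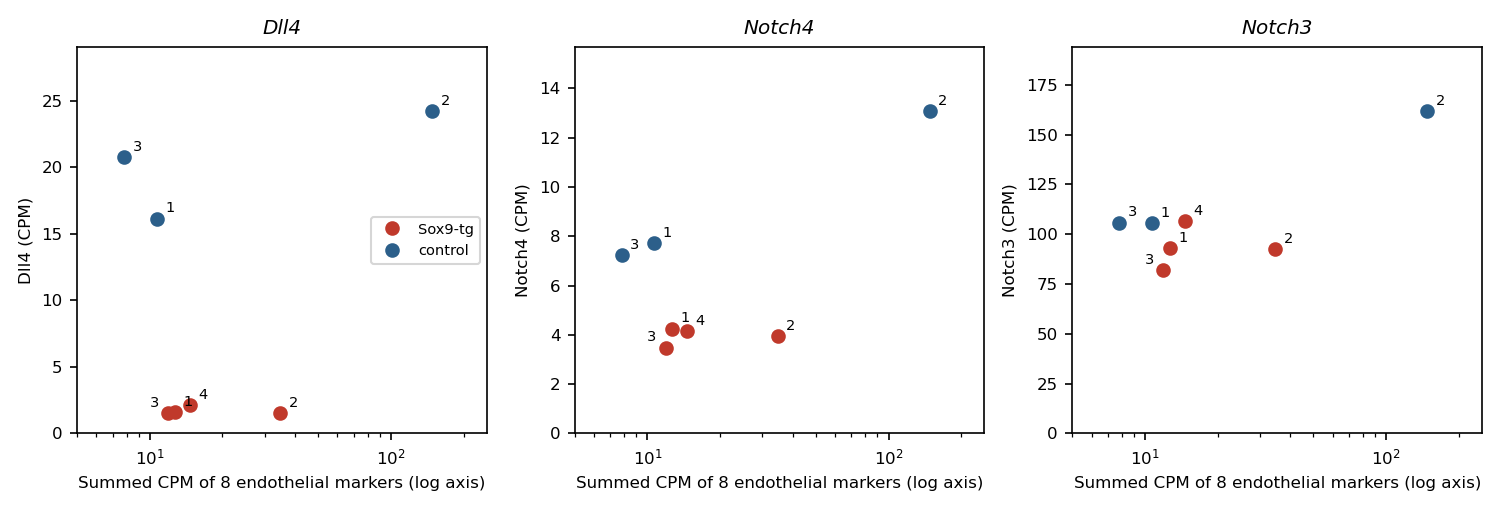
Level of Dll4, Notch4 and Notch3 in CPM (linear axes from 0) against the summed CPM of 8 endothelial markers (log axis), 1 point per library with its replicate number, Sox9-tg in red and control in blue. Control library 2 is highest on both axes in all 3 panels, and control libraries 1 and 3 lie left of all Sox9-tg libraries. That place rests on Kdr, whose removal was a choice made after seeing the data. Without it the sums of control libraries 1 and 3 are 8.83 and 6.69 CPM. Those of Sox9-tg libraries 1, 3 and 4 are then 6.09, 5.02 and 6.002 CPM.

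Of the Fringe genes, Lfng and Mfng fell and Rfng did not pass. Lfng, which codes for lunatic fringe, a Fringe that tunes Notch1 towards Delta-like ligands, had 61.4, 48.3, 62.7 and 74.0 CPM in Sox9-tg libraries, against 129.6, 175 and 136 CPM in control libraries. The groups were well apart, and the level was 2.39-fold lower in Sox9-tg (log2 fold change -1.25, SE 0.16, adjusted p = 0.00189). Mfng, which codes for manic fringe, had 20.3, 7.78, 14.7 and 19.3 CPM in Sox9-tg libraries and 83.7, 51.4 and 68.3 CPM in control libraries. Every Sox9-tg value was below every control value, with Sox9-tg library 2 and control library 2 the lowest of their groups (log2 fold change -2.13, SE 0.30, adjusted p = 0.00286 by edgeR's test). Rfng, which codes for radical fringe, had 54.3 to 72.9 CPM in Sox9-tg and 56.7 to 70.7 CPM in control libraries, and its log2 fold change of 0.01 had an interval of -0.31 to 0.33.

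In RPKM the summed level of the 3 Fringe genes was 56.1 ± 8.42 in Sox9-tg and 108 ± 5.22 in control libraries. Lfng led in control libraries at 58.6 ± 9.76 RPKM, above Rfng at 25.8 ± 2.84 and Mfng at 23.9 ± 5.70, whose ranges overlapped. In Sox9-tg libraries Rfng (26.0 ± 3.80 RPKM) and Lfng (24.6 ± 4.20) had overlapping ranges and Mfng stood at 5.46 ± 2.01 RPKM. Lfng (ENSMUSG00000029570) lies on chromosome 5 from 140607320 to 140615545 on the plus strand, and Mfng (ENSMUSG00000018169) on chromosome 15 from 78755882 to 78773475 on the minus strand. Neither gene shares annotated exon bases with another.

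The genes of the proteases did not pass. Adam10, which codes for the protease of the first cut, averaged 168 ± 9.45 CPM in Sox9-tg and 158 ± 13.6 CPM in control libraries, with an interval of -0.17 to 0.33 for the log2 fold change. Ncstn, which codes for nicastrin, averaged 105 ± 9.29 CPM in Sox9-tg and 106 ± 8.69 CPM in control libraries, with an interval of -0.26 to 0.26. Psen2, which codes for presenilin 2, had 12.8, 17.6, 15.8 and 15.1 CPM in Sox9-tg and 7.67, 12.5 and 10.2 CPM in control libraries. Its groups were barely apart, at 12.8 CPM in the lowest Sox9-tg library and 12.5 CPM in the highest control library, and the log2 fold change of 0.59 (SE 0.20) did not pass (adjusted p = 0.088 by edgeR's test).

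In the nuclear complex, Maml2 rose and the other Mastermind-like genes and Rbpj did not pass. Maml2, which codes for a Mastermind-like coactivator, had 161, 158, 135 and 134 CPM in Sox9-tg libraries, against 62.9, 69.6 and 74.9 CPM in control libraries. The lowest Sox9-tg library was well above the highest control library (log2 fold change 1.09, SE 0.12, adjusted p = 0.000973 by edgeR's test). Maml2 (ENSMUSG00000031925) lies on chromosome 9 from 13297957 to 13709388 on the plus strand, and 101 of its exon bases are shared with Gm22643 on the same strand. Maml1 had 40.4 to 50.3 CPM in Sox9-tg and 37.7 to 45.9 CPM in control libraries.

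Maml3 had 39.7, 15.9, 23.1 and 22.6 CPM in Sox9-tg and 59.3, 27.8 and 51.7 CPM in control libraries. The groups overlapped, and the log2 fold change of -0.87 (SE 0.33) did not pass with all libraries (adjusted p = 0.128) but did without Sox9-tg library 1 (log2 fold change -1.17, adjusted p = 0.026) or control library 2 (-1.13, adjusted p = 0.0474). Rbpj, which codes for the DNA-binding partner of the Notch intracellular domain, had 41.3 to 62.3 CPM in Sox9-tg and 59.4 to 73.4 CPM in control libraries, with an interval of -0.70 to 0.04 for the log2 fold change. Per length Maml2 was the most abundant of these 4 genes in both groups, at 22.3 ± 2.20 RPKM in Sox9-tg and 10.5 ± 0.910 RPKM in control libraries, with Maml1 next at 8.15 ± 0.819 and 7.55 ± 0.743 RPKM.

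Of the Hes and Hey genes, 1 of 6 was called (16.7%, near the 13.5% of all genes tested): Hes6 fell. Hes6, which unlike its relatives opposes Hes1 and is raised in committed neuronal precursors, had 57.5, 57.0, 69.3 and 73.3 CPM in Sox9-tg libraries, against 136, 118 and 128 CPM in control libraries. The groups were far apart, and the level was 1.98-fold lower in Sox9-tg (log2 fold change -0.99, SE 0.12, adjusted p = 0.0016 by edgeR's test). Hes6 (ENSMUSG00000067071) lies on chromosome 1 from 91411483 to 91414038 on the minus strand.

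Hes1 and Hes5, the effectors that Notch turns on in neural progenitors, did not pass. Hes5 had 73.1, 73.4, 81.9 and 72.4 CPM in Sox9-tg and 70.2, 143 and 90.3 CPM in control libraries. The Sox9-tg libraries lay within the control range, which control library 2 widened, and the log2 fold change was -0.43 with all libraries and -0.09 without that library (adjusted p = 0.751 by edgeR's test). Its promoter window, printed above, held a pair of RBPJ cores. Hes1 had 6.98, 19.4, 10.2 and 14.9 CPM in Sox9-tg and 13.9, 26.9 and 20.6 CPM in control libraries, with overlapping groups and an interval of -1.44 to 0.10 for the log2 fold change.

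The Hey genes, Notch targets best known from heart and vessels, did not pass. Hey2 had 14.5, 22.7, 19.5 and 20.3 CPM in Sox9-tg and 7.73, 15.3 and 11.0 CPM in control libraries. The groups overlapped only through Sox9-tg library 1 and control library 2, and the log2 fold change was 0.75 (SE 0.25, adjusted p = 0.0794 by edgeR's test). Without control library 2 it was 1.04 and passed (adjusted p = 0.0245), and without Sox9-tg library 1 it was 0.86 and passed (adjusted p = 0.0421). Heyl averaged 15.4 ± 3.85 CPM in Sox9-tg and 10.8 ± 4.56 CPM in control libraries. Hey1 had 34.1 to 50.2 CPM in Sox9-tg and 35.0 to 56.1 CPM in control libraries, with a log2 fold change of 0.0025 and an interval of -0.43 to 0.44. In RPKM Hes5 (55.2 ± 3.29 in Sox9-tg, 74.3 ± 27.7 in control) and Hes6 (35.6 ± 4.58 and 70.5 ± 4.96) were the most abundant of the 6, and their ranges overlapped in control libraries.

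The 5 modulators did not pass, with log2 fold changes between -0.18 and -0.0057, each of which changed sign under at least 1 other setting. Nrarp, a Notch target whose protein damps the signal, had 45.2 to 74.6 CPM in Sox9-tg and 58.3 to 91.3 CPM in control libraries. Dtx1 and Dtx4, which code for Deltex ubiquitin ligases that act on Notch, averaged 124 ± 16.1 and 70.3 ± 8.61 CPM in Sox9-tg and 131 ± 8.51 and 77.6 ± 24.8 CPM in control libraries. Numb, which codes for an inhibitor of Notch shared out unequally at division, averaged 22.0 ± 3.20 CPM in Sox9-tg and 22.1 ± 3.04 CPM in control libraries, and its relative Numbl 61.8 ± 7.03 and 63.8 ± 1.12 CPM. The widest interval among these 5 was that of Nrarp, from -0.66 to 0.30, which leaves out a 2-fold change.

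Over all 26 genes that did not pass, the 95% interval of the log2 fold change stayed within 2-fold in both directions for 19. It reached past 2-fold for Dlk1, Notch1, Hes1, Hey2, Heyl, Maml3 and Psen2. At an unadjusted p under 0.05 stood 6 of the 26: Jag1, Notch1, Notch3, Hey2, Maml3 and Psen2. The shares of all genes at that p, or with an interval within 2-fold, were not counted, so these counts have no background beside them. The exons of 14 of the 33 genes overlap those of another annotated gene, 11 of them on the opposite strand, so their counts may hold reads of the neighbour.

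**Figure D4:**
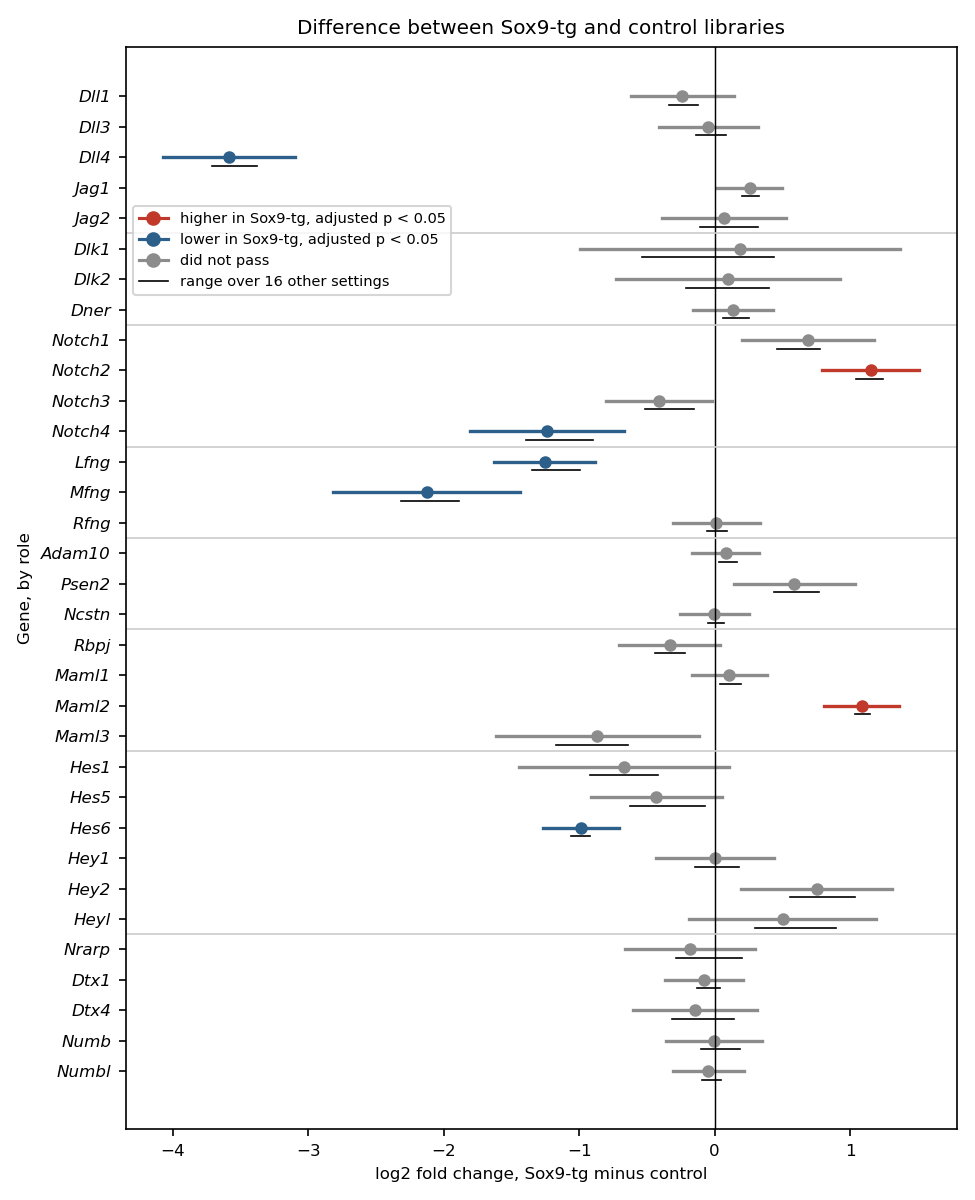
Log2 fold change (Sox9-tg minus control) of the 33 genes by role, as a point with its 95% interval (coloured line) and its range over 16 other settings (thin black line below). Genes higher in Sox9-tg at an adjusted p under 0.05 are red, genes lower are blue and the rest grey, and the black ranges of the 7 called genes stay on 1 side of 0.

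The same libraries differed in markers of other cells and of the cell cycle. Beside the counts of calls that follow, 5.86% of all genes tested were called lower and 7.69% higher. The 8 listed neuronal markers summed to 481 to 1088 CPM in Sox9-tg and 1299 to 2278 CPM in control libraries, with 5 of 8 lower. The 6 cell-cycle genes summed to 385 to 759.7 CPM in Sox9-tg and 1062 to 1749 CPM in control libraries, with 5 of 6 lower. The 5 markers of intermediate progenitors summed to 286 to 487 CPM and 534 to 659 CPM, with Eomes and Gadd45g lower. The 6 radial glia markers summed to 2163 to 3245 CPM and 2932 to 4037 CPM, with 3 lower, and the 6 astrocyte markers to 746 to 1049.7 CPM and 1132 to 2284 CPM, with 3 lower. No gene of these lists was at 0 in every library. The part of these cells in the falls of Dll4, Lfng, Mfng and Hes6 was not tested, nor was that of NG2 glia and oligodendrocytes in the rises of Notch2 and Maml2. All 8 NG2 glia markers were higher in Sox9-tg libraries. The 6 oligodendrocyte markers summed to 704 to 4384 CPM in Sox9-tg and 139 to 269 CPM in control libraries. Of the 5 oligodendrocyte markers tested 4 were higher, and 1 did not pass, at a log2 fold change of -0.42. Mfng and Maml3 were lowest, within each group, in the libraries numbered 2, as were Notch1, Hes6, Rbpj and Adam10. The sums of the interneuron lineage, neuronal, intermediate progenitor and cell-cycle lists were lowest there as well. The 5 markers of the interneuron lineage (Dlx1, Dlx2, Gad1, Gad2 and Lhx6) summed to 482 CPM in Sox9-tg library 2 against 1217 to 1808 CPM in the rest of its group. In control library 2 they summed to 1436 CPM against 2470.35 and 2630.05 CPM. How many of all genes were lowest in both libraries was not counted. Without both libraries numbered 2 the log2 fold change of Mfng was -2.05 (adjusted p = 0.00127 by edgeR's test).

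Beyond the 33 genes, a list of 46 other pathway genes covered the remaining gamma-secretase subunits, enzymes that add sugars to Notch, ligand endocytosis, other ligands, coactivators, corepressors and further Hes genes. Of these, 44 were tested, 4 rose and 3 fell, which is 15.9% of those tested beside 13.5% of all genes, and the median log2 fold change was 0.098. The largest rises belonged to Cntn1 and Cntn6, which code for contactins, neural adhesion proteins that have been described as Notch ligands for oligodendrocyte precursors. Cntn1 had 590.4, 853, 794 and 793 CPM in Sox9-tg and 129, 178 and 166 CPM in control libraries (log2 fold change 2.26, SE 0.19, adjusted p = 0.000275 by edgeR's test). Cntn6 had 25.4, 37.6, 34.8 and 37.1 CPM in Sox9-tg and 4.71, 7.90 and 6.31 CPM in control libraries (log2 fold change 2.41, SE 0.22, adjusted p = 0.000355). For both genes the lowest Sox9-tg library, library 1, was above 3 times the highest control library.

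Of 6 listed genes of the Mindbomb, Neuralized and epsin families, which act in ligand endocytosis, the step by which the ligand's own cell pulls on the receptor, Epn2 and Mib1 rose, Neurl1b fell and 3 did not pass (Epn1, Mib2 and Neurl1a, with log2 fold changes of 0.0033, 0.09 and -0.27). Epn2, which codes for an epsin, averaged 310.1 ± 15.7 CPM in Sox9-tg and 141 ± 14.0 CPM in control libraries (log2 fold change 1.13, adjusted p = 0.000775 by edgeR's test). Mib1, which codes for the ubiquitin ligase Mindbomb that acts on ligands, averaged 188 ± 23.5 and 131 ± 5.29 CPM (log2 fold change 0.52, adjusted p = 0.0273). Its call was lost without any 1 control library or without Sox9-tg library 4, at adjusted p = 0.0525 to 0.0885. Neurl1b, which codes for a Neuralized ubiquitin ligase, averaged 20.7 ± 4.56 CPM in Sox9-tg and 46.7 ± 3.19 CPM in control libraries (log2 fold change -1.17, adjusted p = 0.0027). The corepressor gene Ctbp2 (log2 fold change -0.36, adjusted p = 0.0349) and the Hes relative Helt (-1.40, adjusted p = 0.0283) also fell, and both calls were lost without Sox9-tg libraries 3 or 4 or control libraries 1 or 3, at adjusted p = 0.0502 to 0.172. That of Ctbp2 was lost as well without Sox9-tg library 2 (0.0838) or control library 2 (0.115).

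Proneural genes, which Hes proteins are known to repress, were listed as 8 genes, of which 5 were tested and 2 fell. That is 40% of those tested, beside 13.5% of all genes called and 5.86% lower, in a list chosen with earlier results of these data known. The other 3 did not pass, and of the 5 log2 fold changes 4 were below 0 and 1 was above, at 0.38. Neurod1, a neuronal differentiation factor, had 2.05, 1.55, 2.38 and 1.85 CPM in Sox9-tg and 15.2, 8.42 and 7.89 CPM in control libraries, and Neurod4 had 0.195 to 0.322 CPM and 1.29 to 1.86 CPM. Neither gene's groups overlapped, with log2 fold changes of -2.42 and -2.61 (adjusted p = 0.00142 and 0.00267 by edgeR's test). Neurod4 had only 4 to 5 counts in each Sox9-tg library, against 32 to 43 in control libraries. It passed the filter on low counts through the control libraries alone, so its fall is not independent of that filter.

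**Figure D5:**
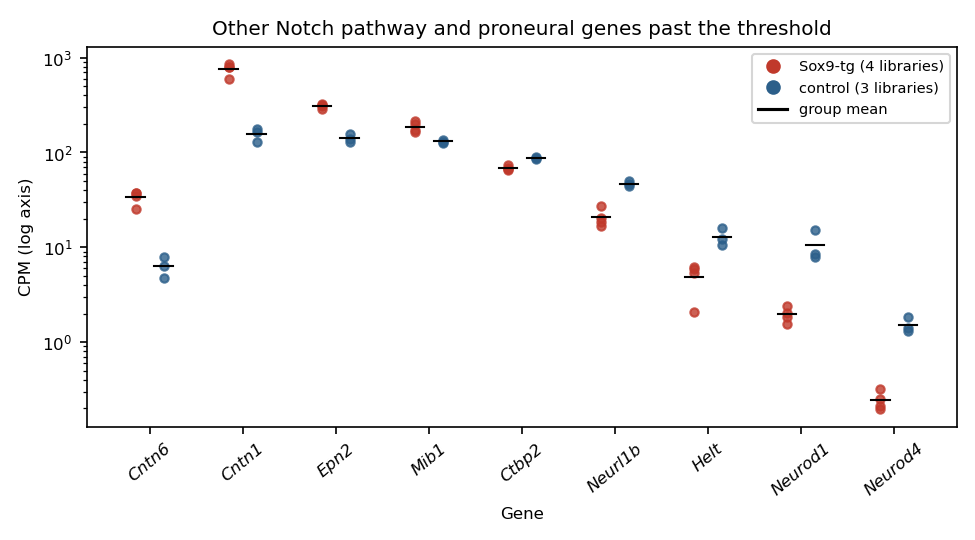
Level in CPM (log axis) of the 9 genes of the other Notch pathway and proneural lists that passed the threshold, 1 point per library, Sox9-tg in red to the left and control in blue to the right, with a bar at each mean. For all 9 genes the points of the groups lie apart, with 4 higher and 5 lower in Sox9-tg libraries.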

How the data were processed

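The members and gene lists were chosen with earlier results of these data known. The authors deposited 1 table of raw counts per library, in whole numbers, with Ensembl IDs and names of genes. The submitters' processing notes list GRCm38 and the tools STAR 2.5.2b, Trimmomatic 0.36, Subread 1.5.2 with featureCounts, DESeq and DESeq2. Not given in the sources used here are their settings, the annotation release, the use of strand and how reads with several matches were counted.

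The 174 IDs without a gene name held at most 0.0154% of a library's counts and were kept. Genes with low counts were removed with filterByExpr in edgeR (minimum count 10, minimum total 15), which left 16616 genes. CPM were computed on library totals scaled by TMM factors (0.965 to 1.05). The test was edgeR 4.0.16's quasi-likelihood F test (R 4.3.3), two-sided, with a model that held the group and no covariate. Standard errors are the size of the log2 fold change over the square root of F, and 95% intervals use the t distribution of that fit. RPKM use the merged exon length of each gene in GENCODE M21 (GRCm38), whose coordinates are given. A total of 3 counts in a library stood for 0.0970 to 0.193 CPM, counting error only. The steps were tested on simulated counts. Other genes named from 2 lists are those past the threshold, at most 6 in each direction, and Epn1, Mib2 and Neurl1a, which did not pass. The values of 1 listed gene are not reported here.

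Alternatives were other scalings (DESeq2's size factors, upper quartile, total counts), DESeq2 1.42.0, limma-voom (limma 3.58.1), other filters, a replicate block and the removal of libraries.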

Additional observations from a re-analysis of the deposited data

Results flagged for a closer look

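In the group of 4 Sox9-tg libraries, 1 library lay far from the others in 4 of the 33 genes by Dixon's test at the 95% level, where chance flags about 1 in 20 groups. The gap to the nearest library, as a share of the group's range, was 0.947 for Dll4 (Sox9-tg library 4 at 2.10 CPM, the rest at 1.55 to 1.58 CPM), 0.915 for Notch1 (library 1 at 914 CPM, the rest at 529 to 562 CPM), 0.894 for Hes5 (library 3 at 81.9 CPM, the rest at 72.4 to 73.4 CPM) and 0.982 for Hey1 (library 1 at 34.1 CPM, the rest at 49.9 to 50.2 CPM). Dll4 in library 4 was still below all control libraries. Groups of 3, as the controls are, were not tested.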

How the results depend on the processing

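All 7 Notch genes called kept their direction and their side of the threshold in each of 16 alternatives, at adjusted p up to 0.0474 (Notch4 without Sox9-tg library 3). The number of higher Notch genes was 2 with all libraries, 5 with DESeq2's own test, 5 with the replicate block, and 2 to 4 when 1 library was left out (4 without Sox9-tg library 1 or control library 2), and that of lower ones was 5 to 7 over all alternatives. The genes gained were Notch1, Hey2 and Psen2 with DESeq2, these and Hes1 and Maml3 with the block. Same-numbered libraries deviated together by correlations of 0.317, 0.613 and 0.0703. Sox9-tg libraries 1 and 2 correlated best with the control library of the same number, and Sox9-tg library 3 with control library 1 (0.0864). The labels name no pairs, and whether same-numbered libraries were prepared together was not tested. The block called 3109 genes in all (18.7%), against 2251 without it (13.5%), and DESeq2's own test called 15.8% of the 18891 genes it tested. Leaving out 1 library gave 965 to 3169 called genes in all. The number was 965 without control library 3 and 1261 without control library 1. It was 1342 and 1356 without Sox9-tg libraries 3 and 4, and 3169 without Sox9-tg library 1. For the other Notch pathway genes, leaving out 1 library gave 3 to 5 higher and 1 to 3 lower (1 without Sox9-tg libraries 3 or 4 or control libraries 1 or 3). With upper-quartile factors 1113 genes were higher and 1112 lower, against 1278 and 973. Leaving out both libraries numbered 2 was chosen after seeing the data. Low counts limit Dll4, Notch4 and Neurod4 in Sox9-tg libraries and Dlk1 and Dlk2 in both groups.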
